A study of Mus musculus with 12 samples.

Results

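The genes described are those of 10 plasma proteins that liver secretes, most of which carry other molecules in blood: Alb, Afp, Gc, Ttr, Rbp4, Trf, Ambp, Ahsg, Fetub and Cp. All 10 are called carriers here. They were chosen by name and were found as 10 of the 25033 entries of the Ribo-seq table. In Ribo-seq, RNA not covered by a ribosome is digested away and the covered pieces (footprints) are sequenced, which gives a measure of how much each gene is being translated. The samples were livers of male C57BL/6 mice, 16 weeks of age, that had eaten a high-fat diet for 8 weeks, either alone (HFD) or with lycopene, a red carotenoid of tomato, at 0.33% of feed by weight (LYC). Both groups thus share the high-fat diet, and the comparison concerns lycopene on top of it. Of 12 libraries, 6 are labelled Ribo-seq (HFD1, HFD2, HFD3, LYC1, LYC2 and LYC3) and 6 are labelled mRNA. The lycopene comes from the sample titles and the methods, because the treatment label of those samples mentions just the fat-rich feed. The labels speak of pooling the RNA of groups before the libraries were made, and the study's Ribo-seq methods also mention pooling of digested samples. The study nonetheless describes the libraries of a group as biological replicates. Whether a library is 1 mouse is thus uncertain, and each p-value measures only the spread between these libraries, which may be technical.

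Hepatocytes make nearly all of the albumin in blood and most of its other carriers. Albumin (Alb), alpha-fetoprotein (Afp) and the vitamin D binding protein (Gc) belong to a single protein family, whose genes lie close together on mouse chromosome 5. Albumin carries fatty acids, bilirubin and many drugs, and alpha-fetoprotein takes much of its place in the fetus before its gene is silenced around birth. Transthyretin (Ttr) carries thyroxine and holds the retinol binding protein (Rbp4) in plasma. Transferrin (Trf) carries iron, and ceruloplasmin (Cp) holds copper and oxidises iron so that transferrin can bind it. Ambp encodes a precursor that is cut into alpha-1-microglobulin, which binds heme, and bikunin, a protease inhibitor. The fetuins Ahsg and Fetub are relatives of the cystatins, and fetuin-A, the product of Ahsg, keeps calcium phosphate in solution.

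The gene positions are those of GRCm38, the genome build the authors used, from the GENCODE vM21 annotation. Alb lies at chr5:90460897-90476602 on the plus strand, and Afp follows it at chr5:90490737-90508907 on the same strand. Gc lies at chr5:89417522-89457898 on the minus strand. The fetuin genes are neighbours on the plus strand, Ahsg at chr16:22891277-22899449 and Fetub at chr16:22918334-22939778. Trf is at chr9:103204001-103230444 (minus), Ambp at chr4:63143275-63154799 (minus), Cp at chr3:19957054-20009145 (plus) and Rbp4 at chr19:38116629-38125281 (minus). The table gives a single value per gene, so where in a gene the reads lay is unknown. Annotated genes on the other strand overlap Afp (Gm43449), Ahsg (Gm30505) and Cp (Hps3), and Gm20425 overlaps Trf on its own strand. Whether counting used strand is not given in the sources used here, so reads of these overlaps cannot be told apart.

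The stretches before the Alb and Afp start sites are shown because these related neighbours stood at the ends of the range of levels. Each is the 250 bases before the RefSeq start of the gene in GRCm38.p6, chr5:90460620-90460869 for Alb and chr5:90490464-90490713 for Afp, both on the plus strand. Capitals mark matches to TATAAA (gene strand only), GTTAAT and TTGCNNAA (either strand). These letters are the TATA box core, a piece of the HNF1 recognition sequence and a form of the C/EBP recognition sequence.
Alb: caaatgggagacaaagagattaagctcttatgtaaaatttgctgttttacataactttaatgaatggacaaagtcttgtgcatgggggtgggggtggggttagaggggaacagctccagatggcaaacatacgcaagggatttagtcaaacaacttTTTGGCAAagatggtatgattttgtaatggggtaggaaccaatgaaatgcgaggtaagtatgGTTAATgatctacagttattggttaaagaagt
Afp: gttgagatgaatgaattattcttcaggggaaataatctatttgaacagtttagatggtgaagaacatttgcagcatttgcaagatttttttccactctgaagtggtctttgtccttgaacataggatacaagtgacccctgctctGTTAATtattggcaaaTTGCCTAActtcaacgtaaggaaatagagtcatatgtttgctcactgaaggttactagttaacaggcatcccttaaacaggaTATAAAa
Counting back from -1 at the base before the RefSeq start, the Alb window held GTTAAT from -32 and a match to TTGCNNAA from -94, and no TATAAA. The Afp window held TATAAA from -7, GTTAAT from -105 and TTGCNNAA from -89, and the RefSeq start lies ahead of the GENCODE one in both genes. The matches do not overlap one another in either window. Over 32851 RefSeq windows of the same length, 7.59% held TATAAA, 6.43% GTTAAT and 9.56% TTGCNNAA. A match is a run of letters only, and no binding was measured. Of the 10 genes, 8 had an entry in the RefSeq promoter table.

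The depth of the libraries differed between the groups. The values are RPKM, reads scaled to gene length and library size, and their steps correspond to totals of 834410 to 4405541 reads for HFD and 311050 to 412116 reads for LYC. The summed RPKM was made up of small non-coding RNA genes to 51.7% ± 4.93 for HFD and 74.4% ± 5.58 for LYC (SD, n = 3). Of the recovered reads on listed genes they were a far smaller share, 4.20% ± 0.776 for HFD and 12.3% ± 2.20 for LYC (SD, n = 3), because RPKM weights short genes up. Each value was also divided by edgeR's trimmed mean of M-values (TMM) factor, which sets the bulk of genes level between libraries. Over the 5666 genes with enough reads to test, the median log2 fold change of LYC against HFD was -0.36 on the RPKM as deposited and -0.09 after this scaling. The median also moved with gene length, from 0.24 in the 1417 shortest genes to -0.26 in the 1415 longest. The table labelled mRNA was not used as a separate readout. Over 5622 genes each of its columns deviated from its group mean as a single library of the Ribo-seq table did. The r ran from 0.938 to 0.966 across genes, which are not independent replicates. The next highest r was below 0 in every column, but centring on the group mean brings that about, so it adds nothing to the match. The Alb counts of the table labelled mRNA differed from the reads recovered in the matching library by 0.177% to 2.72%. The LYC columns followed the library of their own number, whereas HFD1, HFD2 and HFD3 followed HFD2, HFD3 and HFD1. The totals of the tables differed, as its LYC columns held 582184 to 687242 counts. Of these Lars2, a mitochondrial tRNA synthetase gene, made up 35.9% to 40.3% against 6.68% to 15.0% in HFD. The match shows shared libraries and not which assay they came from, so reading the levels as translation rests on the label of the Ribo-seq table.

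Alb had the highest level of the 10 genes in every library and Afp the lowest. Alb had an RPKM of 25585, 29641 and 26176 in HFD1, HFD2 and HFD3, and 15310.3, 13379 and 22447 in LYC1, LYC2 and LYC3. All 3 LYC libraries were below all 3 HFD libraries, and LYC3 was closest to them. Divided by the TMM factor, the levels were 24504, 23455 and 25415 in HFD against 19094, 13337 and 24539 in LYC, where LYC3 lay within the HFD range. On this scale Alb had a log2 fold change of -0.41 (SE 0.38, 95% interval -1.27 to 0.45, adjusted p = 0.497, limma with Benjamini-Hochberg adjustment over all genes tested). The highest HFD library exceeded the lowest 1.16 times and the highest LYC library exceeded the lowest 1.68 times. The size rested on single libraries, as it was -0.18 without LYC2 and -0.66 without LYC3. On the RPKM as deposited it was -0.70 (adjusted p = 0.207, limma). By mean RPKM Alb ranked first among protein-coding genes in HFD and came after Mup2, a major urinary protein gene of a family of near-identical copies, in LYC. Mup2 was named after its values were seen.

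Afp had almost no reads. Its reads were 1, 3 and 3 in HFD1, HFD2 and HFD3, and 1, 2 and 0 in LYC1, LYC2 and LYC3, which are RPKM values of 0.176, 0.326, 1.72, 1.22, 3.08 and 0. The groups overlap, and what a single read was worth differed with depth, 0.109 RPKM in HFD2 and 1.54 RPKM in LYC2. The 0 reads of LYC3 allow up to 3.49 RPKM (3 reads, counting error only). Afp did not pass the filter on low reads and was not tested, so a difference between the groups was not detectable at this depth. Afp was the only one of the 10 genes that the filter removed.

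Gc had RPKM values of 2164, 2305 and 1753 in HFD1, HFD2 and HFD3, against 1639.7, 1528 and 1973 in LYC1, LYC2 and LYC3. LYC3 exceeded HFD3, and the groups overlap. The scaled log2 fold change was 0.02 (SE 0.26, 95% interval -0.57 to 0.61, adjusted p = 0.968, limma). This interval covers changes of up to 1.53-fold upward and down to 0.672 of the HFD level, so a difference of that size could not be told from none. The sign of the Gc value turned negative in several alternatives, among them the RPKM as deposited (-0.27) and leaving out HFD2, HFD3, LYC1 or LYC3 (-0.12 to -0.03).

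**Figure D1:**
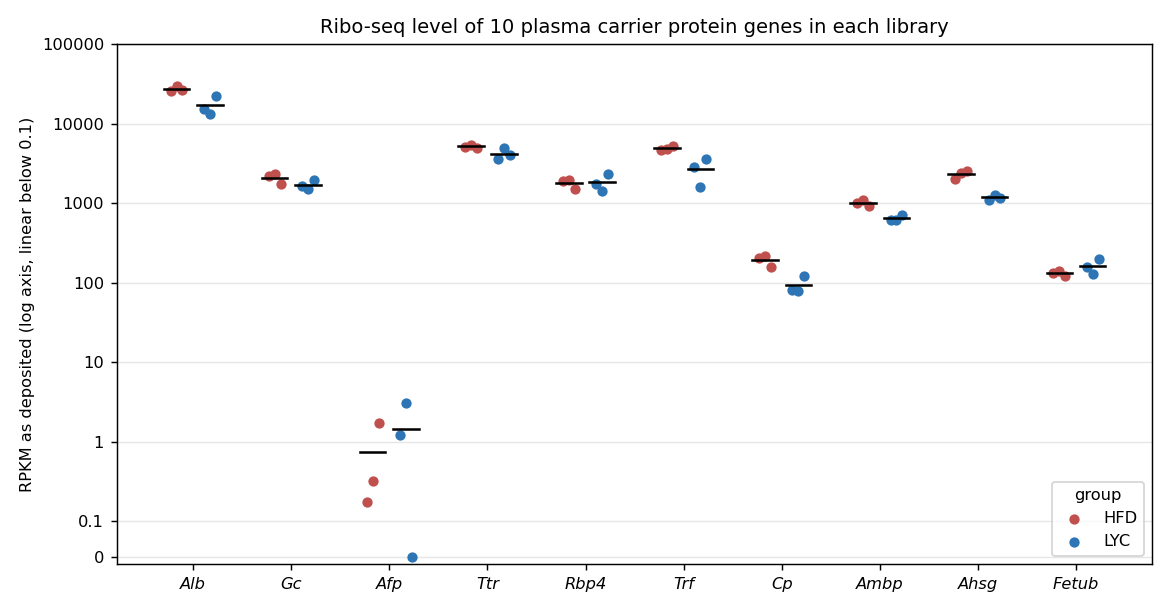
RPKM as deposited of the 10 genes (vertical log axis, linear below 0.1) in the 3 HFD and 3 LYC Ribo-seq libraries, with points for libraries and bars for group means. Alb stands above the other genes in every library, Afp stays at or below 3.08 RPKM, and the LYC points of Alb, Ttr, Trf, Cp, Ambp and Ahsg all lie below their HFD points before scaling.

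Of the retinol transport pair, Ttr had RPKM values of 5149, 5337 and 4966 in HFD, against 3582, 4866 and 4004 in LYC. The LYC libraries were all lower as deposited, while after scaling the groups overlap (4223 to 4932 in HFD, 4378 to 4850.5 in LYC). Ttr had a log2 fold change of -0.03 (SE 0.27, 95% interval -0.64 to 0.58, adjusted p = 0.959, limma), -0.32 on the RPKM as deposited and -0.22 with the trend of fold change on gene length removed. Rbp4 had 1873, 1956 and 1518 RPKM in HFD and 1734, 1428 and 2312 in LYC. LYC2 was the lowest and LYC3 the highest of the 6 libraries, so the groups overlap. That of Rbp4 was 0.31 (SE 0.29, 95% interval -0.35 to 0.97, adjusted p = 0.505, limma), 0.54 without LYC2 and 0.09 without LYC3. Rbp4 has the shortest gene model of the 10, 930 bases in the table, and with the trend of fold change on gene length removed its value was 0.01, as it also was on the RPKM as deposited.

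Of the metal carriers, Trf had RPKM values of 4701, 4850.3 and 5195 in HFD and 2879, 1573 and 3541 in LYC. All LYC libraries were lower as deposited, and LYC2 stood well below the other two LYC libraries. After scaling, LYC3 (3871) passed HFD2 (3838), so the groups overlap by that pair. Trf had a log2 fold change of -0.67 (SE 0.39, 95% interval -1.54 to 0.21, adjusted p = 0.279, limma). Without LYC2 it was -0.26, and without LYC3 it was -0.94. The highest LYC library exceeded the lowest 2.25 times, the widest spread among the 9 genes tested in either group.

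Cp had 206, 215 and 158 RPKM in HFD and 81.2, 79.8 and 121 in LYC. Every LYC library was lower than every HFD library, both as deposited and after scaling (154 to 198 against 79.6 to 132). The log2 fold change of Cp was -0.75 (SE 0.26, 95% interval -1.34 to -0.16), with an unadjusted p of 0.0178 and an adjusted p of 0.0924 by limma. It thus missed the call, for which a gene had to differ by more than 1 on the log2 scale with p under 0.01 before adjustment. On the RPKM as deposited, where the median gene was also lower, Cp passed the call (log2 fold change -1.04, adjusted p = 0.0354, limma), as 11.6% of all genes did downward. DESeq2 on the recovered reads gave -0.73 (adjusted p = 0.0273) and edgeR -0.73 (adjusted p = 0.0689). Without LYC3 the value was -0.98 (adjusted p = 0.0287, limma). It was -0.58 without LYC2 (adjusted p = 0.149, limma) and -0.68 without HFD1 (adjusted p = 0.247, limma). Over all alternatives the adjusted p of Cp ran from 0.0273 to 0.247. Cp is the longest of the 10 gene models, 4712 bases, and its value was -0.56 (adjusted p = 0.161, limma) with the length trend removed.

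Ambp, the precursor of alpha-1-microglobulin and bikunin, had RPKM values of 1010.1, 1110.2 and 917 in HFD and 610.3, 617 and 711 in LYC. Each LYC library was below each HFD library, also after scaling (879 to 967 against 615 to 777). Its log2 fold change was -0.35 (SE 0.23, 95% interval -0.87 to 0.17, adjusted p = 0.337, limma). It was -0.65 on the RPKM as deposited (adjusted p = 0.112, limma) and -0.54 with the length trend removed (adjusted p = 0.148, limma). The spread was narrow in both groups, 1.21 times from lowest to highest in HFD and 1.16 times in LYC.

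The fetuins differed in sign. Ahsg had 2038, 2402 and 2544 RPKM in HFD and 1107, 1276 and 1162 in LYC. Every LYC library was lower than every HFD library, also after scaling (1901 to 2470.1 against 1270.2 to 1380.4). The log2 fold change of Ahsg was -0.68 (SE 0.25, 95% interval -1.24 to -0.12), with an unadjusted p of 0.0222 and an adjusted p of 0.106 by limma. DESeq2 on the recovered reads gave -0.69 (adjusted p = 0.00498) and edgeR -0.69 (adjusted p = 0.0940), and over all alternatives the adjusted p ran from 0.00498 to 0.276. With the length trend removed the value was -0.80 (adjusted p = 0.0467, limma), and on the RPKM as deposited it was -0.97 (adjusted p = 0.0361, limma). In none of these did the size reach the limit of 1.

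Fetub, the weaker of the fetuins, had 134, 139.8 and 120.2 RPKM in HFD and 156, 129 and 200.3 in LYC. LYC1 and LYC3 were above all HFD libraries and LYC2 lay among them. The log2 fold change of Fetub was 0.57 (SE 0.26, 95% interval -0.02 to 1.16, unadjusted p = 0.0580, adjusted p = 0.181, limma), 0.79 without LYC2 and 0.37 without LYC3. On the RPKM as deposited it was 0.28. The reads behind it were 1705 in the 3 HFD libraries and 290 in the 3 LYC libraries.

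Counted together, 0 of the 9 genes tested were called in either direction by limma, beside a background of 7.09% of all genes called higher and 6.35% lower. Under the same limits the count was also 0 with edgeR on the recovered reads (background 8.77% higher and 7.08% lower) and with DESeq2 (background 9.09% higher and 6.90% lower). At an unadjusted p below 0.05, limma gave 2 genes lower (Ahsg and Cp) and 0 higher, against 15.1% of all genes in each direction. At that limit edgeR and DESeq2 on the recovered reads gave the same 2 as lower (background 15.1% and 14.5%) and Fetub as higher (background 17.6% and 17.7%). Limma gave 4 lower on the RPKM as deposited (Trf and Ambp in addition, background 23.8%) and 3 with the length trend removed (Ambp in addition, background 13.8%), and 0 higher in both. The share of all genes higher at that limit is not reported here for these fits. Under the call limits 234 of 5666 genes were higher and 655 lower on the RPKM as deposited, and 371 and 349 with the length trend removed. At an adjusted p below 0.05 limma on the scaled values gave 0 genes (background 6.55% higher and 5.17% lower). DESeq2 gave Ahsg and Cp as lower, against a background of 7.84%, and 0 as higher (background 11.5%). Limma gave Ahsg and Cp as lower on the RPKM as deposited and Ahsg with the length trend removed, with 0 higher in both. The share of all genes at this adjusted limit is not reported here for these limma fits, so these counts have no background beside them. Groups without overlap were found for 3 genes, all lower in LYC (Ambp, Ahsg and Cp), where 19.0% of all genes tested were lower and 18.9% higher without overlap. On the RPKM as deposited this was 6 genes, Alb, Ttr and Trf in addition, against a background of 27.6%. Of the 9 values 6 were below 0, and their median was -0.35 beside -0.09 over all genes tested.

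**Figure D2:**
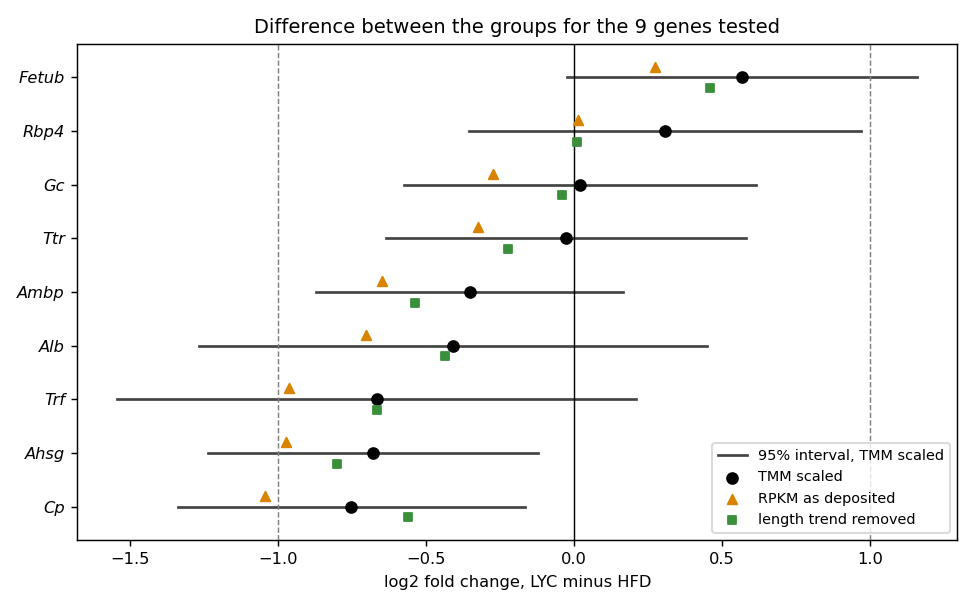
Log2 fold change of LYC against HFD (horizontal axis) for the 9 genes tested, as circles with 95% intervals after TMM scaling, triangles for RPKM as deposited and squares with the gene length trend removed; dashed lines mark -1 and 1. The circles run from -0.75 for Cp to 0.57 for Fetub, and the intervals of Ahsg and Cp do not reach 0.

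The 10 genes took a smaller share of the LYC libraries, by an amount that depended on what was counted. Their share of the summed RPKM of all entries was 4.60%, 5.21% and 6.02% in HFD1, HFD2 and HFD3, and 1.28%, 1.68% and 1.84% in LYC1, LYC2 and LYC3. The means were 5.28% ± 0.710 in HFD and 1.60% ± 0.293 in LYC (SD, n = 3), and the exact two-sided permutation test gave p = 0.1, the smallest that 3 against 3 libraries allow. Small non-coding RNA, whose own share is given above, stood in this sum and was higher in all LYC libraries. With those genes left out of the sum the shares were 10.9% ± 0.770 and 6.41% ± 1.77 (SD, n = 3), and of the recovered reads on listed genes they were 10.2% ± 0.357 and 6.30% ± 1.47 (SD, n = 3). The groups did not overlap under any of these sums. Alb made up most of each value, 3.20% ± 0.444 of the summed RPKM in HFD and 0.920% ± 0.208 in LYC (SD, n = 3). In bulk liver, fewer cells of a type and less RNA per cell cannot be told apart.

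**Figure D3:**
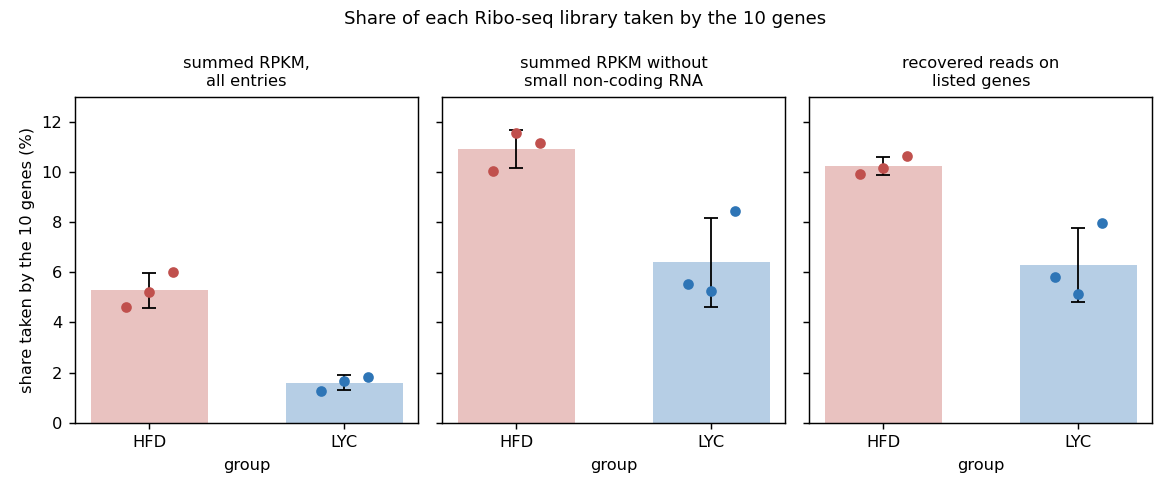
Share of each Ribo-seq library taken by the 10 genes (vertical axis, percent) under 3 denominators, with points for libraries, bars for the mean and error bars for the SD of 3 libraries. The LYC libraries lie below the HFD libraries in each panel, by 1.60% against 5.28% of all summed RPKM and by 6.41% against 10.9% once small non-coding RNA is left out.

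Within the sum of the 10 genes, albumin held the largest share in both groups. Alb was 60.6% ± 1.08 of it in HFD and 57.3% ± 3.94 in LYC (SD, n = 3), with overlapping libraries. The shares of Gc, Rbp4 and Fetub were higher in every LYC library than in any HFD library, and that of Cp was lower. Rbp4 took 3.98% ± 0.442 in HFD and 6.16% ± 0.364 in LYC, and Fetub took 0.294% ± 0.0182 and 0.547% ± 0.0296 (SD, n = 3). The mean shares of Trf and Ahsg were also lower in LYC, with overlapping libraries. These shares sum to the whole, so they are not independent of each other, and a higher share is not a higher level. Gc, for one, had a scaled log2 fold change of 0.02.

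Ordered by level per length, several genes stood in other places in LYC than in HFD. In HFD the mean RPKM fell from Alb to Ttr (5151 ± 186), Trf (4915 ± 254), Ahsg (2328 ± 261), Gc (2074 ± 287), Rbp4 (1782 ± 233), Ambp (1012 ± 96.8), Cp (193 ± 30.5), Fetub (131 ± 10.1) and Afp (SD, n = 3). The libraries of Ttr and Trf, of Ahsg and Gc, and of Gc and Rbp4 overlapped in HFD, and those of the other neighbours did not. In LYC Rbp4 (1824 ± 449) and Gc (1713 ± 231) stood above Ahsg (1182 ± 86.4), and Fetub (162 ± 36.2) above Cp (94.0 ± 23.4) (SD, n = 3). Ahsg was thus above Rbp4 in every HFD library and below it in every LYC library, and Cp and Fetub traded places in the same way. Among neighbours in LYC only Trf and Rbp4, and Rbp4 and Gc, had overlapping libraries.

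Ratios within a library do not depend on the scaling between libraries. They were formed for 4 pairs of related function, chosen after the levels were seen. The ratio of Ahsg to Fetub was 15.2, 17.2 and 21.2 in HFD1, HFD2 and HFD3, and 7.09, 9.92 and 5.80 in LYC1, LYC2 and LYC3. No LYC library reached the HFD range, and the mean log2 ratio differed by -1.25 (LYC minus HFD; exact two-sided permutation p = 0.1, the smallest possible, adjusted p = 0.2 over the 4 pairs). The ratio of Alb to Gc was 11.8, 12.9 and 14.9 in HFD and 9.34, 8.76 and 11.4 in LYC, again without overlap, with a log2 difference of -0.43 (exact permutation p = 0.1, adjusted p = 0.2). The ratios of Ttr to Rbp4 (exact permutation p = 0.4) and of Trf to Cp (exact permutation p = 0.9) overlapped between the groups. None of the 4 could pass 0.05 by this permutation test with 3 libraries a group.

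**Figure D4:**
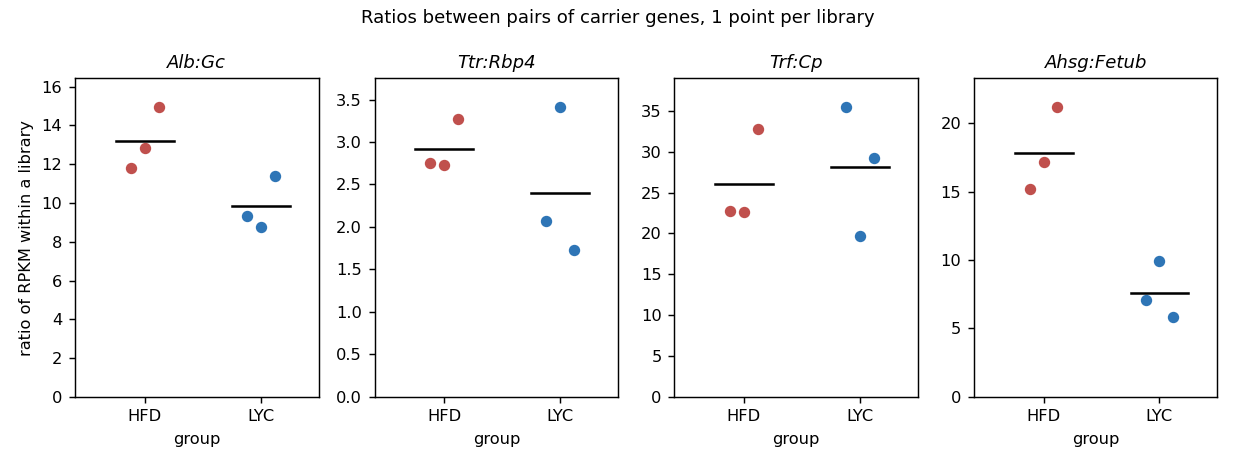
Ratio of RPKM within each Ribo-seq library (vertical axis, no unit, each panel with its own scale from 0) for 4 pairs of genes, with points for libraries and bars for group means. The Ahsg to Fetub ratio runs from 15.2 to 21.2 in HFD and from 5.80 to 9.92 in LYC, and the Ttr to Rbp4 and Trf to Cp ratios overlap.

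Of 17 other carriers of plasma, 13 were tested, with 1 called higher and 1 lower (background 7.09% higher and 6.35% lower), which is near the share of all genes. Orm1, an orosomucoid that binds drugs and steroids, rose (log2 fold change 1.13, adjusted p = 0.0283, limma). Hpx, hemopexin, which binds heme as alpha-1-microglobulin does, fell (-1.29, adjusted p = 0.0124, limma). The median of the 13 was 0.10. Bikunin joins heavy chains of the Itih family, though not every product of the family need do so. Of 5 listed Itih genes 4 were tested and 0 called. Their median was -0.73, with Itih4 at -0.94 (adjusted p = 0.0570, limma) and Itih3 at -0.84 (adjusted p = 0.110, limma), and of the 4 only Itih2 was above 0 (0.16).

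Of 18 receptors and handling proteins of the carried ligands, 11 were tested, with 0 called higher and 3 lower (background 7.09% higher and 6.35% lower). The median of the 11 was -0.14, and 4 of them were above 0. Stra6l, a receptor that takes up retinol from the retinol binding protein, fell by 2.06 on the log2 scale (adjusted p = 0.0190, limma). Its RPKM was 36.1, 54.3 and 37.9 in the HFD libraries, against 3.16, 8.82 and 14.5 in LYC1, LYC2 and LYC3, which rest on 40 reads. Tfr2, the liver receptor for transferrin that senses iron, fell by 1.15 (adjusted p = 0.0423, limma). Hfe, which acts with it, was called at -1.01 with an adjusted p of 0.0649 (limma), on 17 reads in the 3 LYC libraries. The ferroportin gene Slc40a1, the iron exporter, was at 0.04 (adjusted p = 0.934, limma).

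Of 17 regulators listed for the albumin locus, 16 were tested, with 2 called higher and 2 lower (background 7.09% higher and 6.35% lower). Dbp, a clock-driven factor named after the D site of the albumin promoter, rose by 3.10 on the log2 scale (adjusted p = 0.00671, limma). Its RPKM was 1.09, 7.30 and 5.00 in HFD and 21.2, 51.7 and 31.8 in LYC, without overlap. Its relative Tef was called at 1.42 (adjusted p = 0.0506, limma), and Hlf, of the same family, was at -1.22 (adjusted p = 0.118, limma). Foxa2, a liver pioneer factor, fell by 1.53 (adjusted p = 0.0344, limma), on 9 reads in the LYC libraries. Zfp36l1, an RNA-binding protein that was listed among these factors, fell by 1.55 (adjusted p = 0.0157, limma). Hnf4a was at -0.36 and Cebpa at -0.62, and neither was called. The median of the 16 was -0.63.

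The genes whose scaled levels ran most like those of Alb over the 6 libraries were H6pd (r = 0.997), Avl9 (0.994), Shisa5 (0.994), F2r (0.992) and Slc35e3 (0.991), of 5445 protein-coding genes. Among the carriers Trf came closest (r = 0.959), followed by Ambp (0.896) and Cp (0.883). Ahsg (0.619), Gc (0.607) and Rbp4 (0.304) were less alike, and Fetub (0.00755) and Ttr (-0.24) the least. The points share their libraries, depth and scaling, and the r values mix differences between and within groups, so they are a description only. Beside the members, the 100 other protein-coding genes of highest mean RPKM had a median log2 fold change of 0.67, with 27 called higher and 1 lower (over all genes tested a median of -0.09, with 7.09% called higher and 6.35% lower). The mean was taken over all 6 libraries, so genes higher in LYC entered this set more readily. RPKM also weights short genes up, and the shortest genes had a median of 0.24.

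The other cell types were followed by their markers. Of 9 hepatocyte markers, 2 were called higher (Tat and Cps1) and 0 lower (background 7.09% and 6.35%), and their summed RPKM ran from 15964 to 16562 in HFD and from 17417 to 18282 in LYC. Of the markers of Kupffer, endothelial and stellate cells, 6 of 8 each were tested and 0 called. Their summed RPKM was 133 to 181 in HFD and 125 to 201 in LYC for Kupffer cells, 71.6 to 97.3 and 20.8 to 146 for endothelial cells, and 99.3 to 178 and 85.1 to 139.8 for stellate cells. Markers of cholangiocytes (6) and lymphocytes (7) were too low to test. The cholangiocyte sums were 15.4 to 25.1 RPKM in HFD and 2.89 to 9.25 in LYC, lower in LYC without overlap. In LYC they rest on 8 reads of Spp1 and 7 of Sox9, with 0 for Krt19, Krt7, Epcam and Cftr. They are on the RPKM as deposited, where 27.6% of all genes tested were lower in LYC without overlap. The lymphocyte sums were 4.05 to 5.05 RPKM in HFD and 0.966 to 4.35 in LYC. Of 5 red blood cell genes 3 were tested and 1 called higher (Alas2), with sums of 632 to 1433 in HFD and 847 to 989 in LYC. No marker was at 0 in all 6 libraries. The part of cell make-up in the carriers' values was not tested.

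The groups were also compared in the table labelled mRNA, whose columns follow the same libraries. By edgeR's quasi-likelihood test on its counts 0 of the 9 carriers were called (background 9.31% higher and 7.33% lower). At an unadjusted p below 0.05 there were 2 lower (Ahsg and Cp) and 1 higher (Fetub), against 15.7% and 17.8% of all genes. The log2 fold changes there were -0.36 for Alb, -0.56 for Trf, -0.69 for Ahsg, -0.73 for Cp and 0.62 for Fetub. Because of that match no translational efficiency was computed and these values add no independent samples.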

How the data were processed

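The authors cleaned the reads (cutadapt, Bowtie2), mapped them with STAR to GRCm38/mm10 and quantified genes with FANSE2; livers had been treated with cycloheximide. The RPKM values of the Ribo-seq libraries and the read counts labelled mRNA are as deposited by the authors. Versions are not given in the sources used here. The 6 RPKM columns that accompany those counts were not used. Whole reads were recovered from the steps between RPKM values: with RefSeq transcript lengths 65.9% to 68.6% of values above 0 came out whole within 0.01 reads, and other genes took a GENCODE or a fitted length. The Ribo-seq test was limma's moderated test, two-sided, on log2(RPKM / TMM factor + 1), after edgeR's filterByExpr on recovered reads. It called 402 genes higher and 360 lower, edgeR's quasi-likelihood test on those reads 497 and 401, and DESeq2 515 and 391. The counts labelled mRNA were tested with edgeR's quasi-likelihood test. A gene was called past 1 in absolute log2 fold change at p below 0.01, unadjusted. The scripts were tested on simulated data. Left out were 4 entries sharing a name. A hepatocyte marker first chosen is not reported here and was left out of the counts and sums of its list.

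The members, lists and tests were chosen with earlier results of these data known. Named were all members, the called genes of each list or otherwise up to 4, and the 5 genes most like Alb. Outside this rule Hlf, Hnf4a, Cebpa, Slc40a1, Mup2 and Lars2 were named after their values were seen. The software comprised limma 3.58.1, DESeq2 1.42.0 and edgeR 4.0.16 in R 4.3.3, with scipy 1.17.1, pandas 2.3.3, matplotlib 3.10.9 and numpy 2.4.6 in Python 3.11.15.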

Additional observations from a re-analysis of the deposited data

How the results depend on the processing

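The depth of the LYC libraries limits genes as low as Afp, and 3 libraries a group limit every test. Of 144 values of the 9 genes under other scalings, filters, pseudocounts, tools and left-out libraries, 136 kept their direction without a call, 7 changed sign and 1 passed the call. That call was Cp on the RPKM as deposited, so that 1 gene was called lower there. Gc accounts for the sign changes, at -0.27 on the RPKM as deposited, -0.11 with no filter, -0.0404 with the length trend removed, and between -0.12 and 0.17 over the left-out libraries. In the table labelled mRNA Gc was -0.13 with no filter and ran from -0.047 to 0.19 over the left-out columns, and Ttr was 0.0017 with TMM factors made without Lars2 and small non-coding RNA and ran from -0.10 to 0.022 over them. The Trf to Cp log2 ratio ran from -0.096 to 0.33 over the left-out libraries. The carriers' share differed by -3.68 percentage points over all entries, -4.50 without small non-coding RNA and -4.56 over protein-coding genes. Genes without overlap numbered 6 on the RPKM as deposited and 3 after scaling.

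Over all genes the calls were 402 higher and 360 lower, against 234 and 655 on the RPKM as deposited, 265 and 117 with a pseudocount of 10, and 366 and 853 with no filter. Libraries with the same number share only that number: their deviations correlated at r = 0.106, 0.0249 and -0.00435, and HFD2 was most like LYC3. The replicate block gave 399 and 341 calls, and 0 of the carriers. It was not run on the table labelled mRNA, whose columns carry no sample's number. Protein-coding sums, both counts of genes without overlap and the ratios were chosen after seeing the data. The causes of these changes were not tested.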
